A study of Mus musculus with 38 samples.

Results

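Of the 87287 broad H3K4me1 domains called in mouse epidermal stem cells (EpdSCs) before SOX9 induction (D0), 11945, or 13.7%, shared no base with any domain called 1, 2, 6 or 12 weeks after induction (W1, W2, W6 and W12). These D0-only domains are described here. They were selected on the H3K4me1 calls themselves, by the absence of a 1 bp overlap in all 4 later lists, so their H3K4me1 history, and the width and p-value that decide whether a domain is called, are a description and not a finding. Each list pools its replicates and the depth behind the H3K4me1 lists is unknown. A domain missing from the later lists was therefore not detected there, which is less than the working name "lost for good" says.

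The study followed EpdSCs of *Krt14-rtTA;TRE-Sox9* mice, in which doxycycline (DOX) switches on MYC-tagged SOX9 through a *Krt14* promoter that is active in the basal epidermis and in other keratin 14-positive epithelium. Animals of D0, W1, W2 and W6 were males. D0 cells were taken before DOX. Animals of W1, W2 and W6 received it by injection at postnatal day 21 and then in their feed. There was no uninduced list at the later times, so age and induction cannot be told apart. Cells were sorted from back skin as CD49f-high, CD34-negative and Ly6A-high after removal of cells with CD31, CD45, CD117 or CD140a. The W12 cells came from neonatal skin of the same genotype grafted onto *Nude* female hosts, which received DOX after the grafts had healed for 21 days. Week and graft therefore cannot be told apart at W12. H3K4me1 and H3K27ac were measured with MINT-ChIP, a method that tags the chromatin of each sample with a barcode so that samples can go through one immunoprecipitation. Chromatin was digested with a high and a low amount of MNase, and every skin list merged both digests and 2 replicates. One replicate of W2 shared its libraries with the W12 cells and was separated from them by its barcode. Separately, cultured EpdSCs carrying *Krt14-rtTA* were transduced with lentivirus to express one of 3 forms of SOX9. These were the wild type (WT), a form without the HMG domain that binds DNA (ΔHMG), and a form without the transactivation domain (ΔTA). Their H3K4me1 was called with DOX for each variant and without DOX only for the WT cells, so that line and induction cannot be told apart for the mutants. With pooled lists no spread between samples could be had, and no p-value was computed. The p-values given are those of the deposited H3K4me1 lists. Shares carry exact 95% Clopper-Pearson intervals and differences carry Newcombe intervals, both for counting error only.

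H3K4me1 is laid down mainly by the methyltransferases MLL3 and MLL4 and marks enhancers whether or not they are active. Acetylation of H3K27 is added when an enhancer or promoter is in use, so a region with H3K4me1 and no H3K27ac is usually described as primed. In epidermis, TRP63, GATA3, AP-1 and KLF factors are known to act through such elements, and SOX9 is known to specify hair follicle stem cells.

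The strongest acetylated examples are shown first, because they let the kind of place be seen from the sequence. For the 6 D0-only domains with the highest H3K27ac fold enrichment at D0, the 200 bases around the peak summit are printed from RefSeq GRCm38.p6, forward strand. Capitals mark matches on either strand to 4 motifs. The motif of AP-1 factors was searched as TGANTCA, where N is any base, that of the GATA family as the letters GATAAG, that of SOX factors as ACAANG and that of RUNX factors as TGTGGT.
Tcp1, chr17:12916470-12916669: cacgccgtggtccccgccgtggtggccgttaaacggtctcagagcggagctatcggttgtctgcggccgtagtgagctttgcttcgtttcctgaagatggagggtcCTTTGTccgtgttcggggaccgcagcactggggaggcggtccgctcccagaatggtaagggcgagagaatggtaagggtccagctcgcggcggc
Cd164, chr10:41519146-41519345: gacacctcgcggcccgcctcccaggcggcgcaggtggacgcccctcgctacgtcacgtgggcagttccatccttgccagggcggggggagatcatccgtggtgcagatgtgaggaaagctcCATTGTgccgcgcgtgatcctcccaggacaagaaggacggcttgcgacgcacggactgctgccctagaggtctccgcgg
Rlim, chrX:103980768-103980967: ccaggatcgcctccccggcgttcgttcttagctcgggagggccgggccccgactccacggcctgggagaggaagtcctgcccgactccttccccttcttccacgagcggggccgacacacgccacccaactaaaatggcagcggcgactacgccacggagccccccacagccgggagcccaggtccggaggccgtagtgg
Usp38, chr8:81015179-81015378: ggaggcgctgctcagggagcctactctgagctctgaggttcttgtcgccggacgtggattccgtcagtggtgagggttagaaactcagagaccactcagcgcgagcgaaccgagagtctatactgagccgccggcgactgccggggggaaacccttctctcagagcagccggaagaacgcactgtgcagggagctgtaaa
Spata1, chr3:146500157-146500356: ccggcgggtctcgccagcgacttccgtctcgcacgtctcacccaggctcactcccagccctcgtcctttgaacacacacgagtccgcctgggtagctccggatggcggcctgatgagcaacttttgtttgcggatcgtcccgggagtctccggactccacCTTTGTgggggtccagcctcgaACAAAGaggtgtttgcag
Gm10060, chr8:19784683-19784882: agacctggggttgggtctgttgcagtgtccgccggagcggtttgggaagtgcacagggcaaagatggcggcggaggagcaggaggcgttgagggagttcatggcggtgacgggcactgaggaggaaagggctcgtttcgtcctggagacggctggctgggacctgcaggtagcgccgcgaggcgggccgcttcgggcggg

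These 6 windows were rich in G and C, between 60.5% and 70.0% of bases, and held 4 SOX matches in all, with none to AP-1, GATA or RUNX. Each domain lay at most 1284 bp from an annotated start site. Only the summit at Gm10060 and that at *Usp38* lay within the D0-only domain. At *Tcp1*, *Cd164*, *Rlim* and *Spata1* the domain lay on the flank of the peak and shared only its edge. In these 4 the acetylation was centred beside the D0-only domain.

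A different sequence belongs to the D0-only domain with the smallest p-value (6.76e-254), which lay in an intron of *Gria2*, a subunit of AMPA-type glutamate receptors. That domain spanned chr3:80779401-80782400, 14600 bp from the nearest later domain, and its H3K27ac summit lay inside it, 20435 bp from the *Gria2* start site.
Gria2 intron, chr3:80781016-80781215: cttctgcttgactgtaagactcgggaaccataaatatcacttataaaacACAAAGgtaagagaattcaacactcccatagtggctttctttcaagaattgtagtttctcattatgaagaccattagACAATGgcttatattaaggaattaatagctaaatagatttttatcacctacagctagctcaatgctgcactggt
The window had 35.0% G and C and 2 SOX matches. The peak had a fold enrichment of 4.66 at D0 and was in no later H3K27ac list. In culture the same place was called with ΔHMG and in none of the other 3 lists.

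A further set of windows show GATA matches, which were denser in D0-only domains than in others, as described further on. They were chosen after the values were seen, from the 7666 distal D0-only domains of 1000 to under 4000 bp on all chromosomes but 1. Only 14 of these held at least 3 such matches in 200 bases free of repeats, and those with the smallest p-values are shown. Such windows were not counted in other D0 domains, so the 14 are examples and show no excess.
Foxn3 region, chr12:99602554-99602753: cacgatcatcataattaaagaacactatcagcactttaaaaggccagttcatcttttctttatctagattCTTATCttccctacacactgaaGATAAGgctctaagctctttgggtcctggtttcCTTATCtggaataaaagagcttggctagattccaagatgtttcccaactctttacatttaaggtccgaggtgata
Tent5a region, chr9:85505286-85505485: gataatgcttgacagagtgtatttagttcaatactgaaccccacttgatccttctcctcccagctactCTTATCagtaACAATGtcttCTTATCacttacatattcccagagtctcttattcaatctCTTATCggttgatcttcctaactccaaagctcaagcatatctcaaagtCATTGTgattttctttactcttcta
Nuf2 region, chr1:169085490-169085689: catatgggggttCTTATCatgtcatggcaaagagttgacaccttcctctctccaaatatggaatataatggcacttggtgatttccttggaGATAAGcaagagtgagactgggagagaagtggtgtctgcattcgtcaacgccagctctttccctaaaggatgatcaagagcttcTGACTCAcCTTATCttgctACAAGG
The genes are those with the nearest protein-coding start site, 151727, 177453 and 444811 bp away. Each window held 3 GATA matches, and the one near *Nuf2* also held an AP-1 match.

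D0-only domains were narrow and weak. Their median width was 1200 bp (quartiles 1000 and 1800 bp), against 2600 bp for the other D0 domains, and they covered 17.4 of the 310 Mb of the D0 list. Of D0 domains under 1000 bp 38.7% were D0-only, of those between 1000 and 2000 bp 24.1%, and of those between 4000 and 8000 bp 0.885%. Only 2 of 7342 domains of 8000 bp or more were. The median p-value was 2.18e-15 against 4.12e-64, and 842 members (7.05%) ranked above the median of the D0 list. Ordered by p-value, the first decile of that list held no D0-only domain and the last 37.2%.

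**Figure D1:**
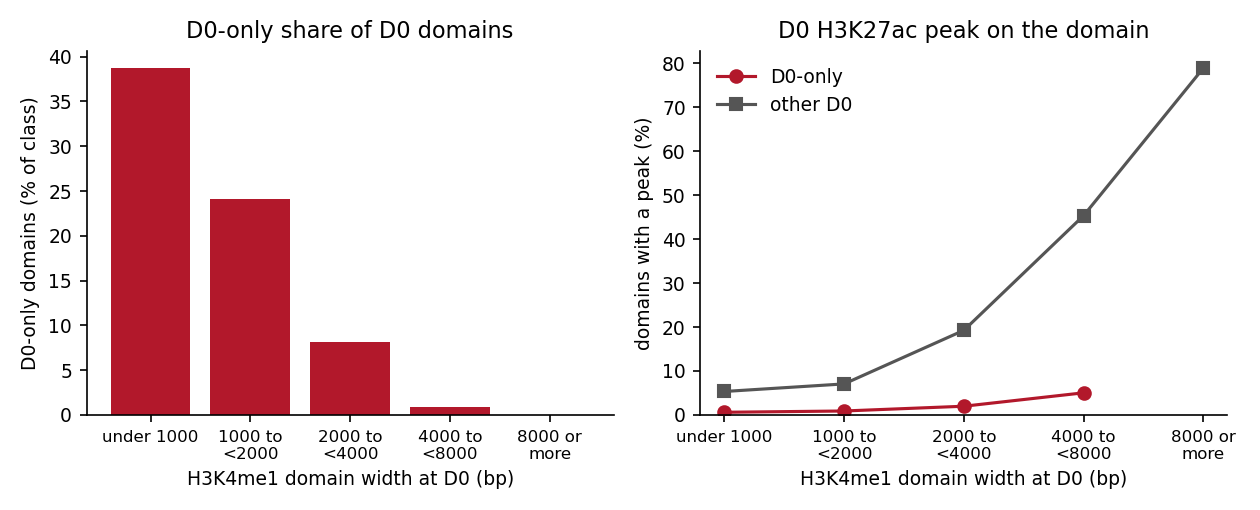
D0 H3K4me1 domains by width class in bp. The left panel gives the percentage of each class that was D0-only, from 38.7% under 1000 bp to 0.0272% at 8000 bp or more, and the right panel gives the percentage of D0-only (red) and other (grey) domains with a D0 H3K27ac peak. The widest class has no red point because it held only 2 D0-only domains. The grey line lies above the red in each of the other classes.

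At the edge of the rule, 56 members touched a later domain without sharing a base, and 1345 (11.3%) lay within 1000 bp of one. On the other side, 152 D0 domains were kept out by an overlap of at most 200 bp, the size of one calling bin. Those 56 had a median width of 1600 bp and those 152 one of 1000 bp. Most members lay clear of the edge. The median gap to the nearest later domain was 4600 bp, and 3308 members (27.7%) were more than 10000 bp from any.

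The strongest and widest members were the furthest from that typical narrow domain. After the *Gria2* domain, the smallest p-values belonged to domains in *Brd9* (chr13:73952601-73956400, 5.35e-253), which encodes a chromatin remodelling subunit, in an intron of *Tsc22d3* (chrX:140580401-140587200, 9.97e-246), a glucocorticoid-induced gene, in *Anxa3* (chr5:96807601-96811600, 1.43e-205), which encodes an annexin, and in *Ercc6l2* (chr13:63830601-63834800, 2.89e-205). The *Anxa3* domain lay 600 bp from a later domain and the others between 1400 and 6200 bp. None of these 4 carried H3K27ac in any list. The widest member, 9800 bp, lay 10746 bp from the start of *Mbp*, the myelin basic protein gene, and was followed by an 8400 bp domain in an intron of *Sox6* and a 7200 bp domain beside the start of *Rgs1*, which encodes a regulator of G-protein signalling. The *Rgs1* domain was called in all 4 culture lists, and that in *Sox6* in none.

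Nearly all D0-only domains lacked H3K27ac. At D0, 131 of 11945 overlapped a peak, 1.10% (0.918 to 1.30%), against 26.3% of the other D0 domains and 22.8% of all. The difference was -25.2 percentage points (-25.6 to -24.8). Wide domains overlap more peaks by their size, yet the gap held within width classes, with 0.897% against 7.06% between 1000 and 2000 bp and 1.98% against 19.3% between 2000 and 4000 bp. Weighted to the widths of all D0 domains the shares were 1.91% and 24.0%. The class of 8000 bp or more held only 2 D0-only domains of 7342. The weighting to width, here and below, rests partly on those 2. Within deciles 4 to 10 of the D0 list by rank, weighted equally, the shares with a peak were 1.53% and 10.3%. The strongest deciles were left out because D0-only domains were few or absent there. Domains called in 1 later list, the set most like the D0-only domains, had a peak in 2.43% of cases. Acetylation thus rose with the number of later lists, through 5.02% and 9.01% to 39.0% of domains called in all 4. Over all 5 H3K27ac lists, 350 D0-only domains (2.93%) met a peak and 11595 met none.

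**Figure D2:**
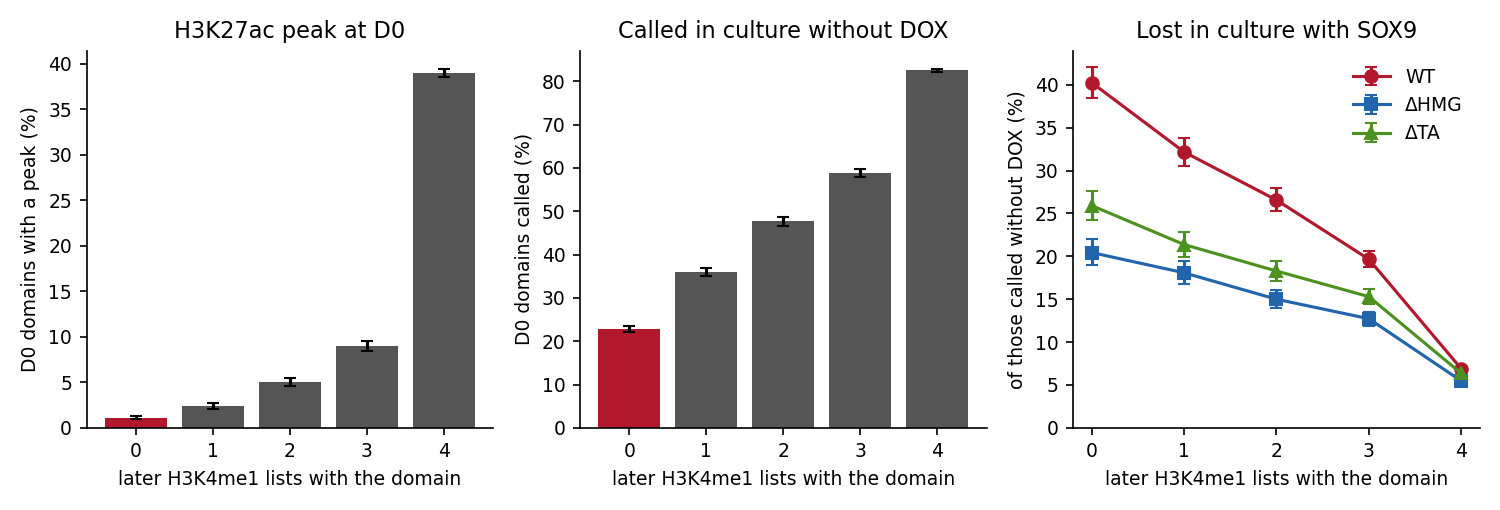
D0 H3K4me1 domains by the number of later skin lists that also called them, with D0-only domains at 0. From left to right, the percentage with a D0 H3K27ac peak, the percentage called in culture without DOX, and the percentage of the latter that were not called with WT, ΔHMG or ΔTA SOX9, with 95% counting intervals. The first 2 rise from D0-only (1.10% and 22.8%) to constant domains, and the third falls, for WT from 40.3% to 6.89%.

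The 131 acetylated members carried weak peaks. Their median fold enrichment was 4.0, with quartiles of 3.92 and 6.33, against 8.0 on the other acetylated D0 domains. Of the 131, 23 had a peak at W1, 29 at W2, 35 in the W6 list and 26 in that of W12. A peak in any later list was found for 41 (31.3%), against 90.02% of the other acetylated domains. The gap was smaller at equal peak strength. Weighted to quartiles of the D0 fold enrichment, 39.4% of the D0-only and 74.8% of the other acetylated domains had a peak at W1, and 56.0% and 75.6% in the W6 list, where domains called in 1 later list stood at 55.0%. These weighted values are unsure, as 87 of the 131 fell in the lowest quartile and 14 or 15 in each of the others. Distal were 83 of 131 (63.4%), fewer than among all D0-only domains and more than the 38.3% of the other acetylated D0 domains. Chromosome 18 was left out when distal examples were chosen. On the other chromosomes, the strongest distal members with the summit inside the domain were much weaker than the promoter examples. Their fold enrichments were 6.66 in an intron at *Ccl28* (chr13:119630601-119632200), 6.0 at *Ano6* and 5.97 at *Chst15*. The 200 bases around the summit at *Chst15* were soft-masked repeat over 88.5% of their length.

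Acetylation of D0-only places was rarer still in the first 6 weeks of induction. Peaks were found on 55 of these places at W1 (0.460%, against 23.5% of all D0 domains), on 43 at W2 (0.360% against 23.2%) and on 48 in the W6 list (0.402% against 23.7%). At W12, in grafted skin, the number was 196 (1.64%, 1.42 to 1.88%, against 20.3% of all D0 domains), and 165 of these 196 (84.2%) were places without H3K27ac in any earlier list. The name of the W12 peak list carries a tag that the names of the earlier lists lack, and the part of peak calling in this number was not tested. Among W12-acetylated places, the share without an earlier peak was 74.0% for domains called in 1 later list and 14.2% for all other D0 domains. Counted over all domains of a set, first acetylation at W12 was rarest on D0-only domains. It was found on 165 of 11945, against 174 of 8772 called in 1 later list and 2489 of 75342 other D0 domains.

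D0-only domains lay away from promoters. Over 2500 bp from the nearest annotated start site were 88.4% (87.8 to 89.0%), against 66.9% of the other D0 domains and 69.8% of all, a difference of 21.5 points (20.9 to 22.2). The share was 88.3% when weighted to width and 88.3% against 72.9% within rank deciles 4 to 10. The median distance was 16033 bp against 8387 bp. By place, 3.47% covered a start site, 14.8% met another exon, 41.4% were intronic and 40.3% intergenic, against 19.5%, 16.7%, 31.8% and 32.0% of the other domains. Compared with domains called in 1 later list, D0-only domains were more distal by 3.79 points (2.85 to 4.74).

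Chromosome X stood apart in the membership. Of its 2041 D0 domains 498 were D0-only, 24.4% (22.6 to 26.3%), against 13.4% on autosomes, where the share ran from 12.2% (chromosome 8) to 14.6% (chromosome 12). Of X domains 54.4% ranked above the median, and the share weighted to rank deciles was 29.4% on X, where the last decile held only 5 domains, and 13.3% on autosomes. Within the X, the share rose from 10.5% in the fourth decile of the list to 52.7% in the eighth. On autosomes it also rose over these deciles, from 2.25% to 26.7%. This is a description, since the rule counted the same calls. Of the later lists W1 and W6 also had a higher share on X. In W1 2.2% of the X domains were called in that list alone, against 1.01% of the whole list. In the W6 list 11.6% of the X domains were called there alone, against 5.0% of that whole list. In the W2 and W12 lists the share of X domains called in one list alone, 9.43% and 3.32%, was below that of the whole list.

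Sequence composition differed slightly. Among distal domains of 1000 to under 4000 bp, the set used for all sequence comparisons, the median G and C content was 43.5% in 7939 D0-only domains, 44.2% in domains called in 1 later list and 45.6% in domains called in all 4. The median share of soft-masked repeats was alike, 18.2% and 17.4% for the first and last. More than 50% repeat was found in 3.94% of D0-only domains and 1.43% of constant ones.

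Of the 16 motifs counted, GATA had the highest ratio of D0-only to constant domains. GATAAG, counted on both strands, occurred 0.466 times per kb in D0-only domains, 0.413 times in domains called in 1 later list and 0.361 times in constant domains. The ratio to constant domains was 1.29 (1.25 to 1.33). Outside repeats the densities were 0.516 and 0.394 per kb. The ratio was 1.21 after weighting to G and C content and 1.38 within rank deciles 4 to 10. At least 1 match was found in 51.4% of D0-only domains and in 54.4% of constant domains, which were wider. GATA3, which binds such sites, is known as a regulator of epidermal identity.

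AP-1 sites went the other way. TGANTCA occurred 0.371 times per kb in D0-only and 0.450 times in constant domains, a ratio of 0.826 (0.800 to 0.852), and 0.782 after weighting to G and C content. The p63 motif, the recognition sequence of TRP63, was rare in both, with 0.0105 and 0.0127 matches per kb (ratio 0.822, 0.675 to 0.997), and the ratio within rank deciles was 1.02. The SOX motif was slightly less dense in D0-only domains (2.27 against 2.38 per kb), as was RUNX (0.806 against 0.852). The homeobox motif TAATTA was denser in D0-only domains (ratio 1.15), but weighted to G and C content its ratio was 0.963, so that its direction turned with base composition. The other ratios above 1 after that weighting were 1.02 for TCF/LEF (ATCAAAG) and 1.04 for the E-box (CAGCTG). Before it they were 1.10 and 0.919. That of KLF (GGGNGTGG) moved from 0.845 to 0.995 and that of AP-2 from 0.789 to 0.935. Against domains called in 1 later list the unweighted ratios lay nearer to 1. They were 0.951 (0.913 to 0.992) for AP-1, 0.978 (0.961 to 0.994) for SOX and 1.01 (0.986 to 1.04) for RUNX. For p63 the ratio was 1.01 (0.779 to 1.31) and for KLF 0.969 (0.926 to 1.01).

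**Figure D3:**
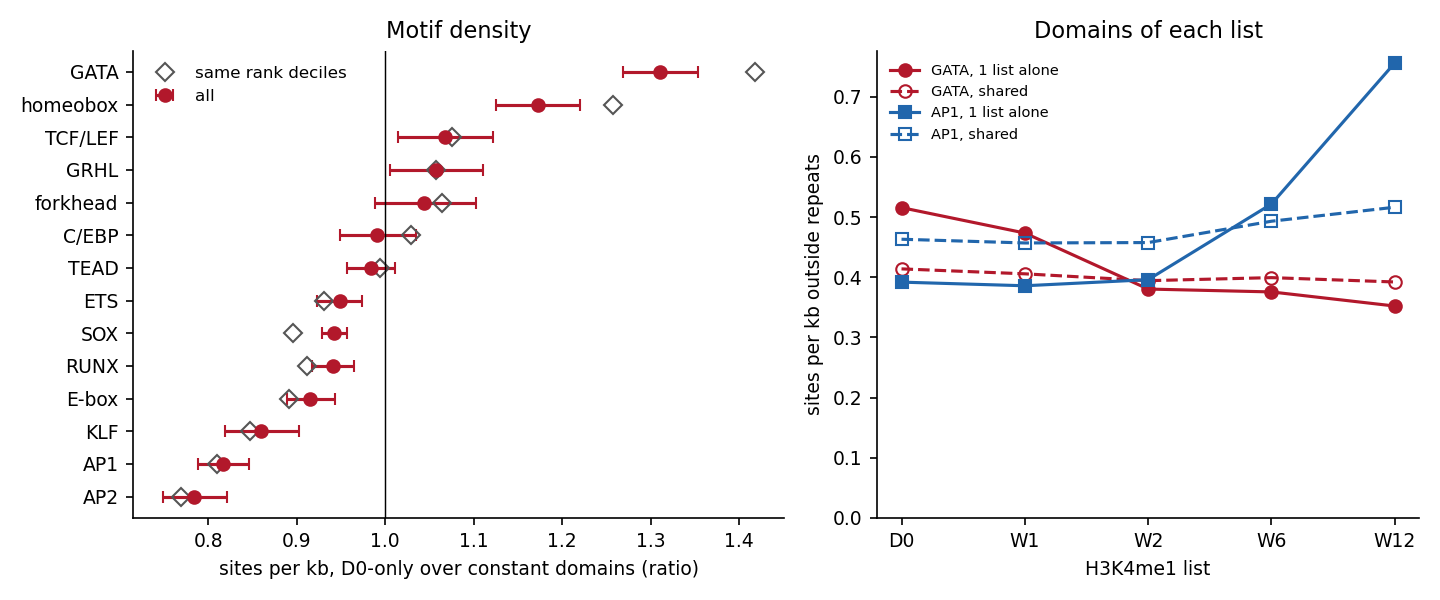
Left, ratio of motif sites per kb outside repeats in D0-only over constant domains, distal and 1000 to under 4000 bp wide, for 14 motifs with 95% counting intervals (red) and within the same rank deciles (open diamonds). Right, GATA (red) and AP-1 (blue) sites per kb in domains called in 1 list alone (filled) and in domains shared with another list (open), for each time point. GATA is highest in D0-only domains at 0.516 per kb and AP-1 in W12-only domains at 0.756 per kb.

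The same count was made in domains called in one list alone at each time point. Outside repeats, GATA density was 0.516 per kb in D0-only domains, 0.474 in the 512 domains of this kind in the W1 list, 0.380 in W2, 0.376 in W6 and 0.352 in W12. In domains shared between lists it stayed between 0.392 and 0.414. AP-1 density was highest in the last list, at 0.392, 0.386, 0.396, 0.522 and 0.756 per kb for the same 5 lists. D0-only and W2-only domains had nearly the same G and C content outside repeats, 44.5% and 44.3%, and different GATA density. SOX density was lowest in D0-only domains, 2.27 per kb against 2.51 to 2.69 in the later lists.

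Around H3K27ac summits inside D0-only domains, which numbered 103, the count was too low to set the motifs apart. GATA was found in 6 windows of 200 bp, 5.83% (2.17 to 12.2%), and in 5.48% of the 26354 summits in other D0 domains. AP-1 was found in 9.71% (4.75 to 17.1%) against 5.25%, SOX in 36.9% (27.6 to 47.0%) against 33.0%, and RUNX in 17.5% (10.7 to 26.2%) against 13.7%. Each interval of the D0-only share held the other value. In whole peaks, which had a median width of 342 bp on D0-only and 599 bp on other domains, the order turned over for each of these 4 motifs.

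The lists of cultured EpdSCs, which the rule did not use, show how often the mark was found at the same places in other cells. Without DOX, 2720 D0-only domains (22.8%, 22.0 to 23.5%) overlapped a culture domain, against 69.5% of the other D0 domains and 63.1% of all. The difference was -46.8 points (-47.6 to -45.9), and weighting to width left it at 23.0% against 67.8%. That weighting includes the widest class, with only 2 D0-only domains. Between 1000 and 2000 bp the shares were 22.2% against 55.1%, and between 2000 and 4000 bp 25.8% against 68.1%. Domains called in 1 later list were found in 36% of cases. At least one of the 4 culture lists held 36.2% of D0-only domains, and all 4 lists held 10.7%, against 81.3% and 56.2% of the other domains.

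Among places called both in D0 skin and in culture without DOX, those that were D0-only lost the culture call with SOX9 more often. With WT SOX9, 1095 of 2720 were not called, 40.3% (38.4 to 42.1%), against 11.6% of the other D0 domains and 13.0% of all, a difference of 28.7 points (26.8 to 30.5). The share with ΔHMG was 20.4% (18.9 to 22.0%), against 7.90% of the others and 8.52% of all. For ΔTA it was 25.9% (24.3 to 27.6%), against 9.34% and 10.2%. Losses were more common over all 110589 culture domains called without DOX, whether or not they met a D0 skin domain. Of these, 25.1% were not called with WT, 15.6% with ΔHMG and 17.5% with ΔTA. The 3 comparisons share the list without DOX, so their values stand side by side. Loss with WT alone was seen for 518 of the 2720 (19.0%), with WT and ΔHMG but not ΔTA for 151 (5.55%), and with all 3 for 245 (9.01%), while 1278 (47.0%) were called with each variant. Over all D0 domains called without DOX these shares were 6.78%, 1.75%, 2.60% and 79.2%. Domains called in 1 later list lay between, with losses of 32.2% with WT, 18.1% with ΔHMG and 21.4% with ΔTA.

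Weak culture domains were lost more often in every set, and D0-only domains were weaker in culture, with a median score of 37 against 54. The other D0 domains called without DOX were also wider in skin, with a median of 3000 bp against 1400 bp. Between 1000 and 2000 bp, 40.1% of D0-only and 18.2% of the other domains were lost with WT SOX9. Between 2000 and 4000 bp the shares were 42.1% and 13.1%. Score and width were not weighted together. At equal score, with width left free, the difference remained. In the lowest decile of scores 68.0% of D0-only and 40.9% of the other domains were lost with WT SOX9, in the fifth decile 28.9% and 8.13%, and in the highest decile 7.35% and 0.883%. Weighted to score deciles, the shares were 30.6% and 11.9% with WT, 13.7% and 8.18% with ΔHMG, and 18.9% and 9.62% with ΔTA. For domains called in 1 later list the weighted shares were 25.8% with WT, 12.8% with ΔHMG and 16.2% with ΔTA, the middle one close to the 13.7% of D0-only domains. With the mutants few domains of either set were lost in the 2 highest deciles, which held only 134 and 136 D0-only domains. With ΔHMG the shares were 1.49% against 0.698% in the ninth decile and 0.735% against 0.295% in the highest.

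**Figure D4:**
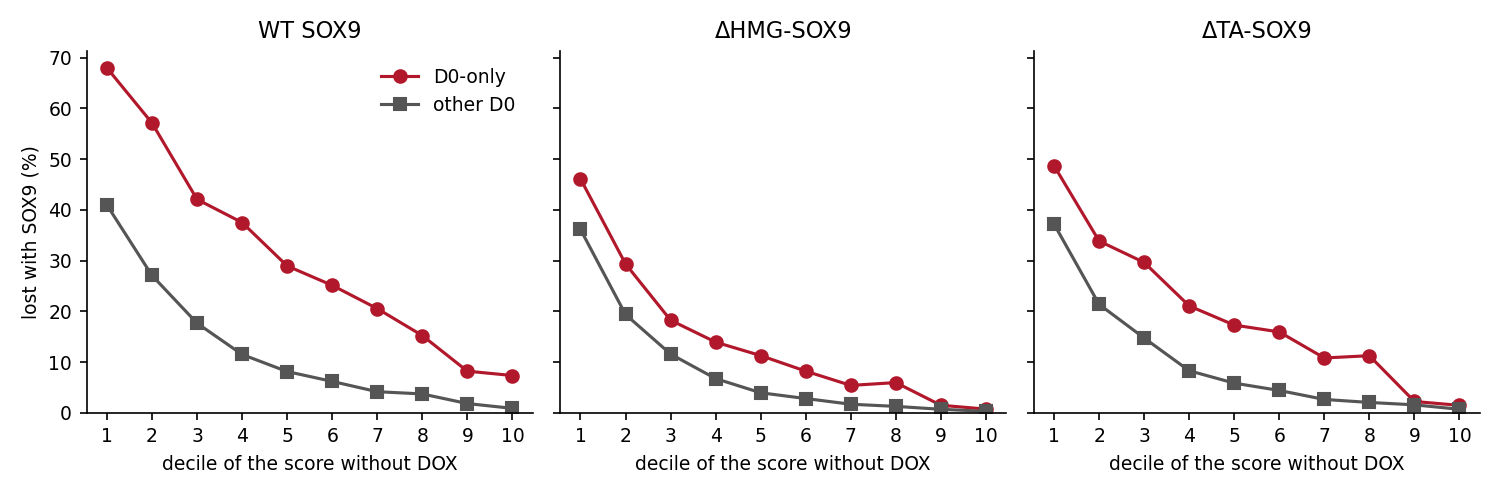
Percentage of D0 domains called in culture without DOX that were not called with WT, ΔHMG or ΔTA SOX9, by decile of the culture score without DOX from weakest (1) to strongest (10). D0-only domains (red) lie above the other D0 domains (grey) in every decile, from 68.0% against 40.9% to 7.35% against 0.883% with WT.

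The places lost with all 3 variants that had the highest scores without DOX were intergenic in 3 of 5 cases. The first, chr14:9239401-9240400, had a culture score of 82 and lay 160224 bp from the nearest start site. The next were an intergenic domain on chromosome 15 (93690201 to 93691000, score 77), one in *Snrpd1* and *Abhd3* on chromosome 18 (10641401 to 10643000, 73), one on chromosome 5 (42970201 to 42971600, 73) and one in *Kif9*, a kinesin gene, on chromosome 9 (110509801 to 110511000, 68). The *Kif9* domain touched a later skin domain.

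In the reverse direction, places without a culture domain before DOX seldom gained one if they were D0-only. Of 9225 such domains 581 (6.30%) were called with WT SOX9, 747 (8.10%) with the ΔHMG form and 883 (9.57%) with the ΔTA form. For the other D0 domains the shares were 22.3%, 16.0% and 19.7%. WT gave the lowest share of the 3 on D0-only domains and the highest on the others.

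D0-only domains were most numerous in long genes. A D0-only domain lay in the body of 3764 of the 16308 protein-coding genes with any D0 domain, and 1225 genes held at least 2, 178 at least 5 and 31 at least 10. The 31 genes had a median length of 914 kb, against 17.7 kb for genes with D0 domains of which none was D0-only. The share of a gene's domains that were D0-only also rose with length, from 7.60% for genes under 50 kb to 19.2% for those of 500 kb or more. Counts per gene repeat the rule and are given without a test.

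The largest count was 35 of 193 domains at *Fgfr2*, a fibroblast growth factor receptor, whose annotated span of 2961 kb takes in 30 other protein-coding genes. Its count and that of the predicted gene *Gm20388* (25 of 301, with 73 other genes in its span) therefore describe regions more than genes. *Macrod2*, which encodes an ADP-ribose hydrolase, held 27 of 104 and *Lrmda* 22 of 70. *Immp2l*, a mitochondrial inner membrane peptidase gene, held 20 of 46, *Robo1*, an axon guidance receptor gene, 20 of 50, *Cfap299* 19 of 30 and *Pde4d*, a cyclic AMP phosphodiesterase gene, 19 of 70. *Trpm3*, an ion channel gene, held 17 of 37, *Rora*, a nuclear receptor gene, 17 of 69, and *Etl4* and *Fhit* 15 of 51 each. *Cfap299* had no domain that was called at all 5 times, whereas *Pde4d* had 30.

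**Figure D5:**
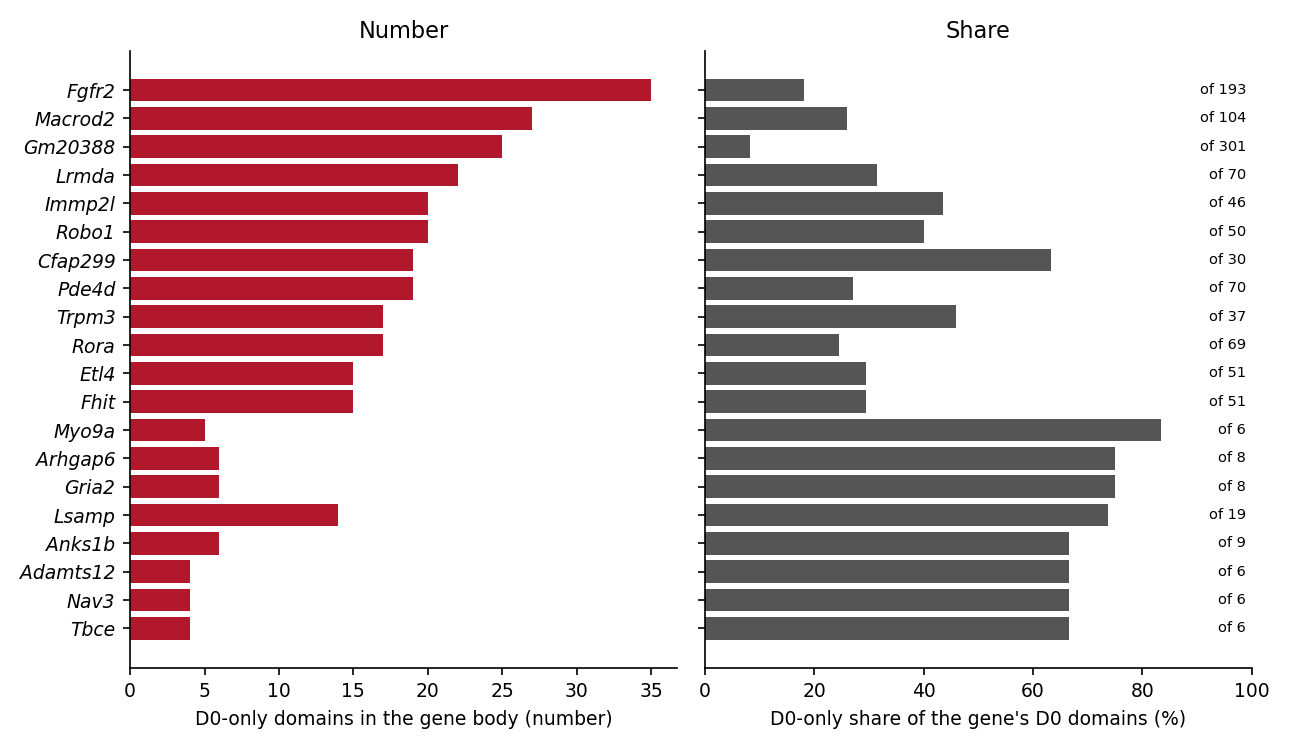
The 12 protein-coding genes with most D0-only domains in their body (*Fgfr2* to *Fhit*) and the 8 with the highest share among genes with at least 6 D0 domains (*Myo9a* to *Tbce*). The left bars count D0-only domains and the right bars give their percentage of the gene's D0 domains, whose number is printed at the right. *Fgfr2* is first by number with 35 and *Myo9a* by share with 83.3%.

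Other genes led by share. Of 2352 genes with at least 6 D0 domains, 64 had 50% or more of them D0-only and 802 had none. *Myo9a*, an unconventional myosin gene, had 5 of 6, *Arhgap6*, on the X, 6 of 8 and *Gria2* 6 of 8. *Lsamp*, a neuronal cell adhesion gene, had 14 of 19, *Anks1b* 6 of 9, and *Adamts12*, *Nav3* and *Tbce* 4 of 6 each. *Lsamp*, *Gria2* and *Adamts12* had no domain called at all 5 times. In culture without DOX, where 22.8% of all D0-only domains were called, these genes ranged widely. None was called of 22 at *Lrmda* and of 17 at *Rora*, 1 of 14 at *Lsamp* and 2 of 20 at *Robo1*, but 5 of 15 at *Etl4*, 2 of 6 at *Gria2*, 6 of 25 at *Gm20388* and 7 of 35 at *Fgfr2*.

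Most neighbours of D0-only domains were not D0-only, but more were than next to other domains. The next domain along the chromosome was D0-only after 21.2% of D0-only domains and after 12.5% of the others. These shares were not weighted to rank, place or chromosome. There were 447 runs of at least 3 and 39 of at least 5. The longest, 11 in a row, covered 842600 bp without a protein-coding gene on chromosome 11 (90948601 to 91791200), where *Kif2b* has the nearest start site. A run of 8 lay at *Skint3* and *Skint4* on chromosome 4 (112163201 to 112474800), members of an immunoglobulin-like family expressed in skin and thymus whose copies resemble each other, so that reads there may be assigned less surely. Other runs lay on the X at *Msl3* (8), *Eda* and *Gpm6b* (7 each). *Eda* encodes ectodysplasin, a signal for hair and other skin appendages.

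Assigned to the nearest protein-coding start site instead of the gene body, D0-only domains were most numerous at *Robo1* (32 of 76), *Pde4d* (20 of 70), *Zfp608* (20 of 103) and *Nr2f2* (19 of 46), a nuclear receptor gene. *Gata3* followed with 18 of 97 (18.6%), level with *Acvr2a*, *Flrt3* and *Trpm3*, and is described because its product binds GATA motifs, a choice made after its count was seen. All 18 lay downstream of the gene, 153600 to 1199600 bp from its start, on chr2:8676001-9725000. None lay in the gene body or within 10000 bp of it, where 4 D0 domains were called and all 4 were called at every time. Of the 97 domains 24 carried H3K27ac at D0, and none of these 24 was D0-only. One of the 18 was called in culture without DOX. The widest was 5800 bp and the smallest p-value was 1.17e-59. Nearness does not assign these domains to *Gata3*. Among all D0 domains over 2500 bp from an annotated start site, 10558 of 60927 were D0-only, a share close to the 18.6% at *Gata3*. The count at *Gata3* therefore shows no clear excess over distal domains in general.

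Gene lists chosen for the epidermis were counted next. Within 10000 bp of 26 epidermal identity factors, 5 of 128 D0 domains were D0-only (3.91%, 1.28 to 8.88%), against 12.4% around all protein-coding genes and 7.37% for all D0 domains of the same widths, a value inside that interval. They lay at *Klf5*, *Ovol2*, *Cebpa*, *Elf5* and *Satb1*, and none carried H3K27ac or was called in culture without DOX. *Trp63*, with 13 domains, and *Grhl2*, with 13, had none. Around 18 genes of Notch and EGF receptor signalling the count was 3 of 104 (2.88%, 0.599 to 8.20%), against 8.65% at these widths, with 1 at *Notch2* and 2 at *Rbpj*, the DNA-binding effector of Notch. Around 23 hair follicle stem cell genes it was 6 of 206 (2.91%, 1.08 to 6.23%), against 9.72% at these widths, and 3 of the 6 lay in introns of *Nfib*.

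Genes of epidermal structure and barrier had 10 of 82 (12.2%, 6.01 to 21.3%), against 7.04% at these widths, a value inside the interval. At *Abca12*, a lipid transporter gene of the barrier, there were 3, and there were 2 at *Dsg3*, a desmosomal cadherin gene, with 1 each at *Dsc1*, *Dsg1a*, *Tgm1*, *Tgm3* and *Lor*. The *Abca12* domain at chr1:71295401-71298600 had the smallest p-value of these, 2.45e-94. Both *Dsg3* domains carried H3K27ac at D0, the only ones of all the listed genes to do so. Of the 3 domains of this list that were called in culture without DOX, those at *Dsc1* and *Dsg1a* were not called with WT SOX9, and 1 of the 2 at *Dsg3* was called with all 3 variants.

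Markers of other cell types that a sort can carry over had between 0 and 6 D0-only domains a list. The endothelial list had 6 of 43 (14.0%, 5.30 to 27.9%), 4 at *Flt1* and 2 at *Erg*. The melanocyte list had 3 of 28, the fibroblast list 3 of 25, the immune list 2 of 28, the muscle list 2 of 18 and the nerve list 0 of 16, which allows up to 20.6%. Epidermal basal cell markers, which check the sorted cell type, had 3 of 53, and 77.4% of these 53 were called in all later lists. The intervals of all these lists held the share at the same widths, between 6.16% and 15%, and a part of other cells in the D0-only domains was not tested.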

How the data were processed

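MINT-ChIP of 38 samples was considered. Per the labels and the study's methods, the authors aligned reads to GRCm38/mm10 with Bowtie2 2.2.9, removed duplicates with Picard, merged replicates with SAMtools 1.9 and called H3K27ac with MACS2 2.1.1 and H3K4me1 with epic2. The submitters' notes also name SICER 0.0.36 and deepTools 2.5.4. The deposited H3K4me1 lists of skin give a p-value per domain in bins of 200 bp. The deposited H3K27ac and culture lists give a score, a fold enrichment (a ratio over the local background) and a −log10 q-value. The culture lists have the layout of MACS2 broad peaks, so their caller is unclear. Read depth of the lists is unknown. Barcode files (14) and total H3 were not used here.

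D0-only domains, gene lists, motifs and named loci were chosen with earlier results of these data known. Domains named were the 6 with the strongest H3K27ac fold, the 5 widest, the 5 with the smallest p-value and the 5 lost in culture with all 3 variants that scored highest. Genes named were the 12 with most D0-only domains and the 8 with the highest share among genes with at least 6 domains. Overlap meant 1 bp. Start sites (77200) came from GENCODE M21 basic, sequences from RefSeq GRCm38.p6, read with pysam 0.24.0. Intervals used scipy 1.17.1. Overlap functions were tested on 20000 simulated domains, with 0 wrong calls. Motif sites were counted on both strands. Alternatives covered overlap, distance, rank, width, score, start sites and chromosomes. Those by rank, culture score, repeats and G and C content were added after seeing the data.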

Additional observations from a re-analysis of the deposited data

How the results depend on the processing

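No paired analysis was possible because each list pools its replicates, and for the same reason no replicate could be left out. The number of D0-only domains stayed within 1.5 times of 11945 under 7 of 8 alternatives (11021 to 15233) and was 842 among D0 domains above the median rank. Their share with H3K27ac was 0.862% by summit, 0.276% with peaks above the median score, 3.44% above the median rank, 1.91% weighted to width and 1.53% within rank deciles 4 to 10, each below the other domains' value under the same setting. The distal share was 93.5% at a limit of 1000 bp, 63.5% at 10000 bp and 95.4% for protein-coding start sites. The culture share without DOX was 21.3% with 50% overlap, 9.32% with culture domains above the median score and 21.3% within rank deciles 4 to 10. Loss with WT SOX9 was 42.5% with 50% overlap and 30.6% weighted to culture score. In whole peaks the motif shares were 18.4% for AP-1, 14.6% for GATA, 53.4% for SOX and 27.2% for RUNX, each below the other domains' 25.5%, 19.9%, 70.8% and 41.1%, where the summit windows had each above. At least 2 D0-only domains were nearest by start site to 2407 genes. The GATA ratio was 1.21 weighted to G and C content and 1.38 within rank deciles, and the AP-1 ratio 0.782 weighted to G and C content. The other 18 of 40 values stayed within the main interval, or within 1.5 times for counts. Among these 40 values no other comparison with the remaining domains changed direction. Outside them, some motif ratios to constant domains did. With weighting to G and C content, those of the homeobox, GRHL and forkhead motifs turned below 1 and that of the E-box above 1. Within rank deciles, those of p63 and C/EBP turned above 1. The depth of the H3K4me1 lists was not known, and its part in the D0-only calls was not tested.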

Other observations

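The places of D0-only domains that were acetylated for the first time at W12 numbered 165 of 11945, more than the 131 acetylated at D0. For the other D0 domains they numbered 2489 of 75342, a higher share, beside 19814 acetylated at D0. Domains called in the W12 list alone, which numbered 2573 among distal domains of 1000 to under 4000 bp, had the lowest GATA density of the 5 lists (0.352 per kb outside repeats) and the highest AP-1 density (0.756 per kb). Among domains called in one list alone the W1 list had the fewest, 699 or 1.01% of that list, against 10.3% in W2, 5.0% in W6 and 4.49% in W12.

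The D0-only place with the strongest acetylation, a 400 bp domain at Gm10060 on chromosome 8 (19784401 to 19784800), kept an H3K27ac peak in all 5 lists while its nearest later H3K4me1 domain lay 194200 bp away. As an exact match, the 200 bases around its summit occur 1 time in the genome used. Copies with any differing base were not counted.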
